A study of Mus musculus with 8 samples.

Results

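Amino acid and neurotransmitter transporters were taken as the genes of the solute carrier families Slc6, Slc7, Slc36, Slc38 and Slc43. The rule matched 55 gene symbols of the expression table. It left out Slc7a1, Slc7a2, Slc7a5 and Slc7a11, so that 51 of the 21878 genes in the table remained. No expression value entered the choice. Of the 51, 2 (Slc7a6os and Slc6a19os) name genes on the opposite strand beside a carrier gene and encode no carrier. The cells were wild-type astrocytes from the brains of newborn (P0) C57BL/6 mice. One group of 4 libraries came from cells given the cytokines interleukin-1α (IL-1α) and TNFα together with the complement protein C1q, a cocktail the study used to obtain reactive astrocytes positive for the complement fragment C3d. The other 4 libraries came from untreated cells of the same strain and age. The labels give neither the dose nor the duration of the cocktail, and nothing in them ties a library to an animal or culture. P-values therefore measure the spread between libraries, which may be technical.

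Carriers of family 6 use the sodium and chloride gradients to take up GABA, glycine, monoamines, taurine, creatine and neutral amino acids, and they end transmission by clearing transmitter from the synapse. Families 38 and 36 mostly move small neutral amino acids with sodium or protons, family 7 exchanges amino acids across the membrane, and family 43 carries large neutral amino acids by facilitated diffusion. Astrocytes take up glutamate and GABA and return glutamine to neurons, and carriers of family 38 serve both the release and the uptake of that glutamine.

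The regions just upstream of transcription starts are shown for 4 carriers whose mRNA changed. Slc36a1 and Slc36a4 belong to 1 family and changed in opposite directions, Slc43a2 was among the carriers that rose most, and Slc6a17 was called lower. Each is the run of 250 bases before an annotated start from RefSeq on build GRCm38.p6, written 5′ to 3′ in lower case on the strand of the gene. Capitals mark a match to CACGTG, the E-box letters, or to TGANTCA, the letters of an AP-1 site. The Slc36a1 window lies at chr11:55204090-55204339, plus strand, and runs past the outermost annotated start of the gene at 55204322. The Slc36a4 window lies at chr9:15709488-15709737, plus strand. The Slc43a2 window lies at chr11:75531444-75531693, plus strand, inside the annotated gene and before an internal start. GENCODE places an exon of Gm45606 there on the other strand. The Slc6a17 window lies at chr3:107518019-107518268, minus strand.
Slc36a1: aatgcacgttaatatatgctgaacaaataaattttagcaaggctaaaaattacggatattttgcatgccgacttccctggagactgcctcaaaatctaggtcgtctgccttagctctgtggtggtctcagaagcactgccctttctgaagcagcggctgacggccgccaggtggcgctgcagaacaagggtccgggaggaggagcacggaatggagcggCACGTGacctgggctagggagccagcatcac
Slc36a4: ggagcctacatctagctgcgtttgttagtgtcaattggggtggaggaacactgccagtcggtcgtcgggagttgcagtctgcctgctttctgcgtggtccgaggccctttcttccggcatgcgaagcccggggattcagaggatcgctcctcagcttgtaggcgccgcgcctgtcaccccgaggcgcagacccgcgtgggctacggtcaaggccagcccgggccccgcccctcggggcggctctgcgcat
Slc43a2: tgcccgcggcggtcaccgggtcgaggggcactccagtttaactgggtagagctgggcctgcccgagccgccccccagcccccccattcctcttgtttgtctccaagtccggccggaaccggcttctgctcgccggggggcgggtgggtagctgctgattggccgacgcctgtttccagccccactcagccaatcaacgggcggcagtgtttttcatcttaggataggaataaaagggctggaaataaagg
Slc6a17: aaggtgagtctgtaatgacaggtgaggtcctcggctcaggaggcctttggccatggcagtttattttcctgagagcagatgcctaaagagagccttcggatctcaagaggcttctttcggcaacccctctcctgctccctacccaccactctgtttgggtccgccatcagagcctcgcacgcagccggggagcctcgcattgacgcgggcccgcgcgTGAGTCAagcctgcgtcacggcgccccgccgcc

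RefSeq windows were at hand for 36 of the 51 members, 14 of them tested: 7 that rose, 4 that fell and 3 that were not called. Those of Slc38a9, Slc43a2, Slc7a6 and Slc7a7 lie inside the annotated gene, before an internal start. Those of Slc38a6 and Slc38a7, like that of Slc36a1, run past the outermost annotated start of the gene. GENCODE exons cover all 250 bases of the Slc6a9 window, from Slc6a9 itself, and of the Slc38a10 window, from Gm11769 on the other strand. Both strands were searched for CACGTG, for TGANTCA and for TTGCATCA, the letters of an amino acid response element, and also for a consensus NF-kB site of 10 letters. The E-box letters were found in the windows of Slc36a1 and Slc38a7, and 6.04% of 32536 windows of the same length over all genes held them. TGANTCA was found in Slc38a7, Slc38a10 and Slc6a17, and in 6.73% of all windows. The matches in the Slc38a7 window lie inside the annotated gene, past its outermost start. TTGCATCA was found in none of the 14, and in 0.762% of all windows, and the NF-kB consensus in none of the 14 and in 0.36% of all windows. No match overlapped another. A match is a string of letters and no evidence of binding, and its absence covers this window only.

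Whole fragments recovered from the steps of the deposited values summed to between 19195898 and 20640490 fragments in a library, so that 3 fragments of a gene of 2 kb correspond to 0.0727 to 0.0781 FPKM (fragments per kilobase of gene length, scaled to the depth of the library). The astrocyte markers Gfap, Aqp4 and Slc1a3 averaged 189, 253 and 221 FPKM with the cocktail, and 412, 165 and 254 FPKM untreated. Of the 10 genes on the astrocyte list, 9 were tested, of which 2 rose and 7 fell. Over all genes tested, 26.6% rose and 41.1% fell. S100b, among the 7, was tested only because of its level in the untreated libraries. Cocktail libraries 1 and 2 stood apart from cocktail libraries 3 and 4. Pairs of cocktail libraries differed by a chi-square of 2.29 to 6.79 per gene, lowest within these pairs, and pairs of untreated libraries by 2.11 to 4.50. The summed level of 11 microglial markers was 16.1, 16.9, 36.2 and 48.4 FPKM in cocktail libraries 1 to 4, against 13.4, 12.3, 13.7 and 11.8 FPKM in untreated libraries 1 to 4. In bulk libraries, fewer cells of a type and less RNA per cell cannot be told apart.

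The cocktail raised some carriers several-fold and lowered others as much, and families 6, 7, 36 and 38 each held carriers that rose and carriers that fell. The proton-coupled carrier Slc36a2 rose 5.96-fold, the branched-chain amino acid carrier Slc43a2 3.07-fold and the nucleobase carrier Slc43a3 2.58-fold, by group means. The glutamine carrier Slc38a3 was 4.04-fold lower and the neutral amino acid carrier Slc6a15 3.91-fold lower with the cocktail. Of the 51 members, 23 reached 1 FPKM in 4 or more libraries and were tested. Of these 23, 11 rose (47.8%) and 9 fell (39.1%) by limma at an adjusted p below 0.05, and 3 were not called. Over all 11845 genes tested by the same rule, 26.6% rose and 41.1% fell, 67.7% in all. With a change of at least 2-fold, an absolute difference of 1 on the log2(FPKM + 1) scale, 3 members rose (13.0%) and 2 fell (8.70%), while 4.08% of all genes rose and 4.56% fell by as much. The cocktail and untreated values did not overlap in 20 of the 23, with the cocktail above in 11 and below in 9. Over all genes tested they did not overlap in 62.7%. The median log2 change was 0.07 over the 23 members and -0.05 over all genes tested. Slc6a17 passed the filter through the untreated libraries alone. Rescaling the libraries by median ratios moved the share of calls that were higher from 39.3% to 51.8% over all genes, and then 13 members rose and 9 fell.

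**Figure D1:**
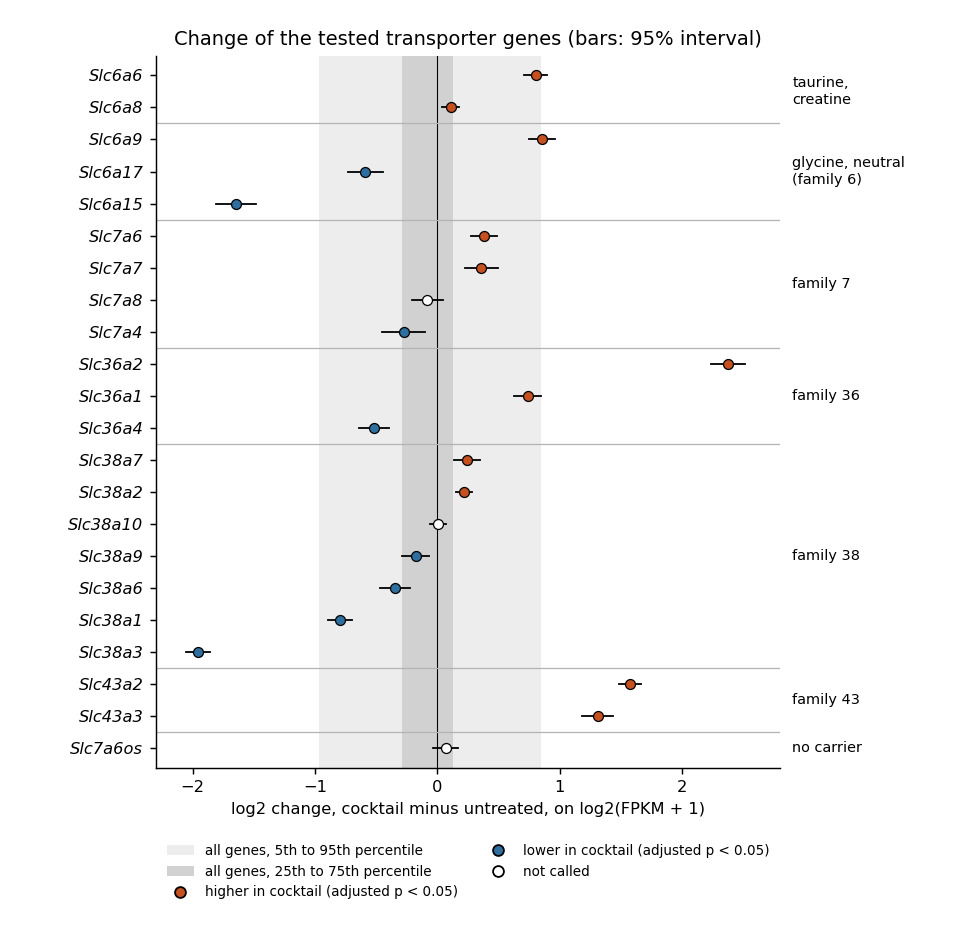
Log2 change, cocktail minus untreated, on the log2(FPKM + 1) scale for 22 of the tested genes, grouped by family, with 95% intervals as bars. Grey bands give the middle of all 11845 genes, and Slc36a2, Slc43a2, Slc43a3, Slc6a15 and Slc38a3 lie outside the wider band by the greatest distance.

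FPKM is a level per length of gene, so levels of different carriers were set side by side on that scale. The summed level of all members was 527 ± 8.37 FPKM with the cocktail and 421 ± 7.21 FPKM untreated (SD, n = 4 each). The taurine carrier Slc6a6 led in both groups, with 31.5% of the sum with the cocktail and 22.5% untreated. Slc38a3 stood 9th with the cocktail and 2nd in untreated cells. Slc43a2 stood 2nd with the cocktail and 7th untreated, and Slc36a2 stood 6th with the cocktail and 15th untreated. Each of the first 4 places in cocktail libraries was held by a carrier whose libraries lay above all those of the next. With the cocktail, the libraries of Slc6a8 and Slc36a2 overlapped, as did those of Slc38a10 and Slc38a1. In untreated libraries, those of Slc38a2 and Slc38a1 overlapped, as did those of Slc38a10 and Slc43a2, and the carriers from Slc6a15 down to Slc36a4 formed a run in which each overlapped the next.

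**Figure D2:**
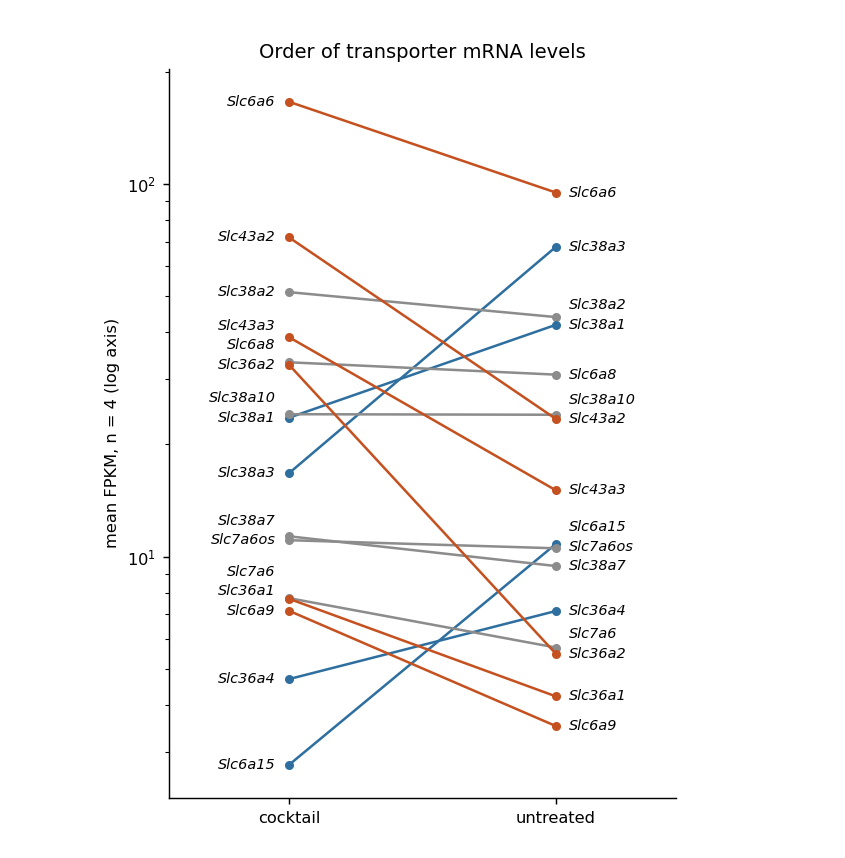
Mean FPKM of 4 libraries (log axis) in cocktail cells at the left and untreated cells at the right, for 16 members with a mean of at least 5 FPKM in either group. Orange lines are carriers at least 1.5-fold higher with the cocktail, blue lines are at least 1.5-fold lower, and grey lines changed by less; Slc36a2 stands 6th with the cocktail and 15th untreated, and Slc6a15 stands 18th with the cocktail and 9th untreated.

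The carriers of taurine and creatine both rose. Slc6a6 carries taurine, an osmolyte that cells take up or release when they adjust their volume (chr6:91684048-91759063). Slc6a6 had 164, 166, 173 and 161 FPKM in cocktail libraries 1 to 4, against 94.2, 87.2, 95.5 and 102 FPKM in untreated libraries 1 to 4. Every cocktail library was higher than every untreated library. Its mean was 166 ± 5.42 FPKM with the cocktail and 94.7 ± 6.03 FPKM untreated (SD, n = 4 each), a 1.75-fold rise (log2 change 0.80 ± 0.0431 SE, limma adjusted p = 9.27e-09). The creatine carrier Slc6a8 had 33.2, 33.6, 32.9 and 33.1 FPKM in cocktail libraries 1 to 4, against 30.9, 31.5, 29.1 and 31.5 FPKM in untreated libraries 1 to 4. The groups did not overlap, but the lowest cocktail library lay close above the highest untreated ones. Its rise was 1.08-fold (log2 change 0.11 ± 0.0311 SE, limma adjusted p = 0.00915), and without cocktail libraries 1 and 2 the adjusted p was 0.0519.

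Of the carriers of glycine, proline and neutral amino acids in family 6, 3 of 11 were tested, and 1 rose and 2 fell. Slc6a9 encodes GlyT1, the carrier with which astrocytes remove glycine from around synapses (chr4:117835258-117869305). It had 7.28, 6.91, 7.01 and 7.43 FPKM in cocktail libraries 1 to 4, against 3.55, 3.32, 3.82 and 3.37 FPKM in untreated libraries 1 to 4. Every cocktail library was above every untreated one, with little spread in either group. Its mean was 7.16 ± 0.240 FPKM with the cocktail and 3.51 ± 0.228 FPKM untreated, a 2.04-fold rise of the means (log2 change 0.85 ± 0.0481 SE, limma adjusted p = 1.45e-08), and with a pseudocount of 0.1 the change passed 2-fold. Slc6a15 takes up branched-chain amino acids and proline (chr10:103367808-103419379). Slc6a15 had 2.99, 2.99, 2.48 and 2.61 FPKM in cocktail libraries 1 to 4, against 12.2, 11.3, 10.4 and 9.43 FPKM in untreated libraries 1 to 4. The groups were far apart, and its highest cocktail library was under the lowest untreated one. It fell to 2.77 ± 0.266 FPKM with the cocktail, against 10.8 ± 1.17 FPKM untreated (log2 change -1.65 ± 0.0739 SE, limma adjusted p = 1.84e-09). Slc6a17, a neutral amino acid carrier of synaptic vesicles, ranged over 0.516 to 0.712 FPKM with the cocktail and 1.28 to 1.54 FPKM untreated. It was called lower too (log2 change -0.59, limma adjusted p = 6.32e-06). As it passed the filter through the untreated libraries alone, this call is no separate support for a fall. Of the 12 neuronal markers, 4 were tested, and 2 fell, 1 rose and 1 was not called. Over all genes tested, 26.6% rose and 41.1% fell. The summed level of the list was 53.4 to 61.1 FPKM with the cocktail and 141 to 159 FPKM untreated. Most of that sum was Stmn2, which fell and averaged 38.8 FPKM with the cocktail and 125 FPKM untreated. Map2 fell too, and Gad1 rose to 3.21 FPKM with the cocktail, against 1.11 FPKM untreated. Nefm, under the filter, averaged 1.18 FPKM with the cocktail and 0.399 FPKM untreated. Rbfox3, Snap25 and Nefl averaged at most 0.0235 FPKM with the cocktail and 0.0526 FPKM untreated. The part of these markers in the falls of Slc6a15 and Slc6a17 was not tested.

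In family 7, 2 of the 4 tested carriers rose, 1 fell and 1 was not called. Slc7a6 and Slc7a7 are light chains that pair with the heavy chain Slc3a2 and exchange cationic for neutral amino acids. Slc7a6 had 8.14, 7.93, 7.45 and 7.44 FPKM in cocktail libraries 1 to 4, against 6.17, 5.5, 5.70 and 5.45 FPKM in untreated libraries 1 to 4. The groups did not overlap, and the rise of the means was 1.36-fold (log2 change 0.38 ± 0.0480 SE, limma adjusted p = 1.93e-05). Slc7a7 was lower in level, with 1.49 to 1.82 FPKM with the cocktail and 0.953 to 1.17 FPKM untreated, and rose as well (log2 change 0.36, limma adjusted p = 2.46e-04). Slc7a7 had 1.62, 1.49, 1.54 and 1.82 FPKM in cocktail libraries 1 to 4, so it did not share the gap between libraries 1 and 2 and libraries 3 and 4 that the microglial markers showed. Slc7a4, a family member for which no transport is established, ranged over 0.802 to 1.26 FPKM with the cocktail and 1.29 to 1.72 FPKM untreated and fell (log2 change -0.28, limma adjusted p = 0.00915). The adjusted p of Slc7a4 was 0.0826 without cocktail libraries 1 and 2 and 0.266 after quantile normalization. Slc7a8, a light chain that exchanges neutral amino acids, ranged over 2.71 to 2.99 FPKM with the cocktail and 2.71 to 3.29 FPKM untreated, and the groups overlapped (log2 change -0.084, limma adjusted p = 0.215, 95% interval -0.21 to 0.042).

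Family 36 is known for carriers that move small neutral amino acids together with protons, which need not hold for each member. Its 3 tested carriers went in both directions. Slc36a2 carries glycine, alanine and proline (chr11:55158468-55185099). It had 33.5, 34.8, 29.3 and 33.2 FPKM in cocktail libraries 1 to 4, against 6.30, 5.32, 5.25 and 5.09 FPKM in untreated libraries 1 to 4. Each cocktail library held several times the level of any untreated library. Its mean was 32.7 ± 2.37 FPKM with the cocktail and 5.49 ± 0.548 FPKM untreated, a 5.96-fold rise (log2 change 2.38 ± 0.0641 SE, limma adjusted p = 2.32e-11), and 99.4% of all genes tested had a lower log2 change.

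Slc36a1, the next member on chromosome 11 at a gap of 19.2 kb, encodes a carrier of the lysosomal membrane that acts in amino acid sensing (chr11:55204322-55236330, with the window shown above). It had 7.31, 7.70, 7.37 and 8.46 FPKM in cocktail libraries 1 to 4, against 4.21, 4.49, 4.05 and 4.13 FPKM in untreated libraries 1 to 4. All cocktail libraries exceeded all untreated ones, and the rise was 1.83-fold (log2 change 0.74 ± 0.0513 SE, limma adjusted p = 9.97e-08). On the other side of Slc36a2, at 6.7 kb, Slc36a3 was at 0 in all 8 libraries. Slc36a4 on chromosome 9 encodes a carrier with high affinity for proline and tryptophan (chr9:15709738-15742388). It had 5.13, 4.50, 4.28 and 4.87 FPKM in cocktail libraries 1 to 4, against 7.54, 6.84, 6.95 and 7.27 FPKM in untreated libraries 1 to 4. Here every cocktail library was lower than every untreated library, and the level fell to 4.70 FPKM with the cocktail, against 7.15 FPKM untreated (log2 change -0.52 ± 0.0543 SE, limma adjusted p = 3.91e-06).

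**Figure D3:**
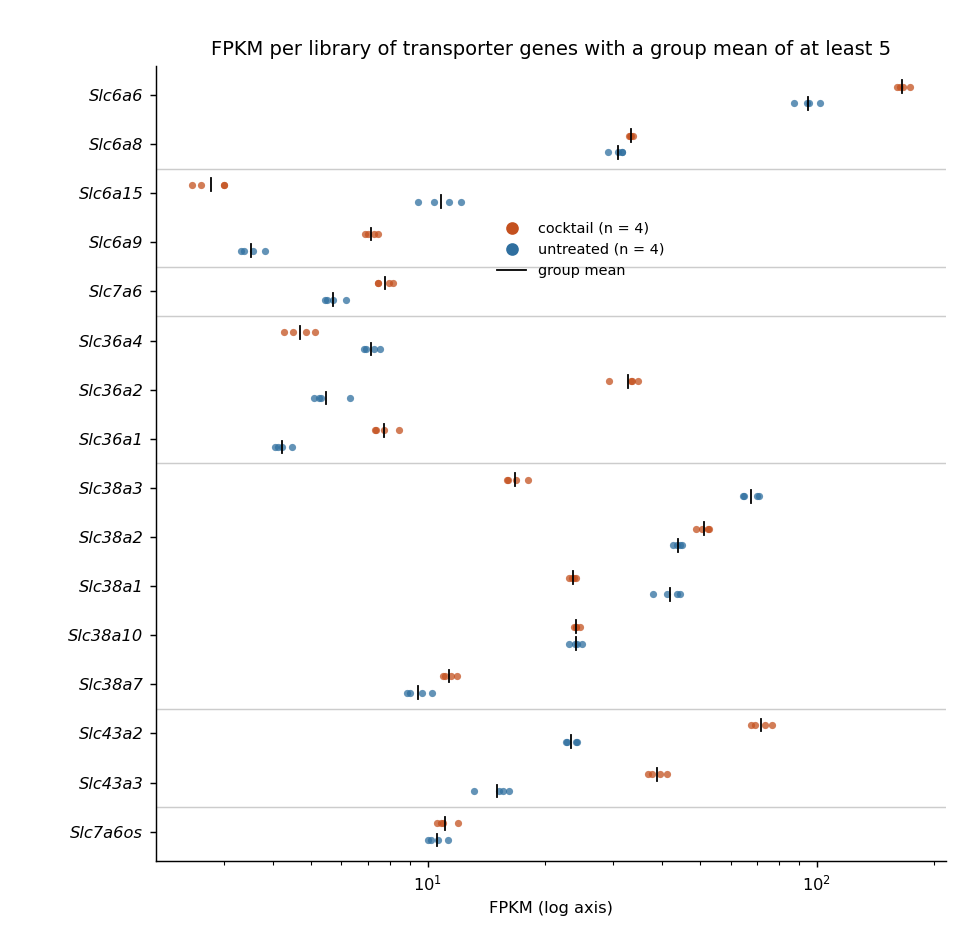
FPKM in each of the 8 libraries (log axis) for 16 genes with a group mean of at least 5 FPKM, cocktail libraries above untreated libraries for each gene, with a tick at the group mean. The groups are far apart for Slc6a15, Slc36a2, Slc38a3, Slc43a2 and Slc43a3, and they overlap for Slc38a10 and Slc7a6os.

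Family 38, the sodium-coupled neutral amino acid carriers, had 7 tested members, of which 2 rose, 4 fell and 1 was not called. Its summed level was 131 ± 1.34 FPKM with the cocktail and 193 ± 6.15 FPKM untreated. Slc38a3 encodes SNAT3, the carrier through which astrocytes release glutamine (chr9:107651154-107668968). It had 16.1, 18.1, 16.9 and 16.0 FPKM in cocktail libraries 1 to 4, against 71.1, 70.3, 65.0 and 64.7 FPKM in untreated libraries 1 to 4. The libraries within each group lay close together and the groups were widely separated. Slc38a3 fell to 16.8 ± 0.956 FPKM with the cocktail, against 67.8 ± 3.40 FPKM untreated (log2 change -1.95 ± 0.0450 SE, limma adjusted p = 6.75e-12), and 0.473% of all genes tested had a lower log2 change. Of the astrocyte markers, 7 of the 9 tested fell too, while 41.1% of all genes tested fell. S100b, among the 7, passed the filter through the untreated libraries alone, so its call is no separate support for a fall. Aqp4 and Ndrg2 rose. The summed level of the list was 857 to 877 FPKM with the cocktail and 1087 to 1230 FPKM untreated. The part of the astrocyte markers in the fall of Slc38a3 was not tested.

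Slc38a1 and Slc38a2 lie on chromosome 15 with 44.0 kb between them and changed in opposite directions. Slc38a1 encodes SNAT1, a glutamine uptake carrier. It had 23.0, 24.1, 23.7 and 23.5 FPKM in cocktail libraries 1 to 4, against 43.8, 44.5, 41.1 and 38 FPKM in untreated libraries 1 to 4. The cocktail libraries were all lower and lay within a narrow band (log2 change -0.80 ± 0.0450 SE, limma adjusted p = 1.47e-08). Slc38a2 encodes SNAT2, whose gene is known to respond to amino acid shortage and to hypertonic stress. It had 52.7, 50.8, 48.9 and 52.5 FPKM in cocktail libraries 1 to 4, against 43.7, 44.9, 44.5 and 42.6 FPKM in untreated libraries 1 to 4. The cocktail libraries were all higher, by 1.17-fold of the means (log2 change 0.22 ± 0.0312 SE, limma adjusted p = 6.14e-05).

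The members of family 38 known from lysosomes changed little. Slc38a7, a lysosomal glutamine exporter, had 10.9, 11.4, 11.1 and 11.9 FPKM in cocktail libraries 1 to 4, against 9.0, 8.83, 9.67 and 10.2 FPKM in untreated libraries 1 to 4. The groups did not overlap, and the rise was 1.20-fold (log2 change 0.24 ± 0.0482 SE, limma adjusted p = 7.55e-04). Slc38a9, the lysosomal arginine sensor that acts upstream of mTORC1, ranged over 1.85 to 2.10 FPKM with the cocktail and 2.35 to 2.48 FPKM untreated and fell (log2 change -0.18, limma adjusted p = 0.00699). For Slc38a9 the adjusted p was 0.0626 without cocktail libraries 1 and 2 and 0.621 after quantile normalization. Slc38a6 ranged over 2.06 to 2.45 FPKM with the cocktail and 2.95 to 3.27 FPKM untreated and fell (log2 change -0.35, limma adjusted p = 1.43e-04). Slc38a10 had 24.1, 24.1, 24.6 and 23.7 FPKM in cocktail libraries 1 to 4, against 24.1, 23.9, 23.1 and 24.9 FPKM in untreated libraries 1 to 4. The groups overlapped almost wholly, with a 95% interval of the log2 change from -0.063 to 0.073 (log2 change 0.0049, limma adjusted p = 0.896); after median-ratio rescaling its adjusted p was 0.0425, on the higher side.

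Both tested members of family 43 rose, and their summed level with Slc43a1 was 111 ± 5.84 FPKM with the cocktail and 38.5 ± 1.43 FPKM untreated. Slc43a2 encodes LAT4, which lets branched-chain amino acids, methionine and phenylalanine leave the cell by facilitated diffusion (chr11:75529915-75577575, with the window shown above). It had 73.6, 76.5, 69.3 and 67.8 FPKM in cocktail libraries 1 to 4, against 24.2, 24.0, 22.8 and 22.6 FPKM in untreated libraries 1 to 4. Each cocktail library was far above each untreated library. Its mean was 71.8 ± 3.97 FPKM with the cocktail and 23.4 ± 0.822 FPKM untreated, a 3.07-fold rise (log2 change 1.58 ± 0.0409 SE, limma adjusted p = 1.77e-11). Slc43a3, which is known as a purine nucleobase carrier and not as an amino acid carrier, lies at chr2:84936545-84958509. It had 39.5, 41.2, 36.8 and 37.7 FPKM in cocktail libraries 1 to 4, against 16.2, 13.2, 15.6 and 15.2 FPKM in untreated libraries 1 to 4. The groups were again well apart, with a rise of 2.58-fold (log2 change 1.31 ± 0.0574 SE, limma adjusted p = 1.46e-09). Slc43a1, the amino acid carrier LAT3, lies 73.0 kb from Slc43a3 and stayed under the filter.

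Slc7a6os, the gene beside Slc7a6 whose protein is no carrier, had 11.98, 10.9, 10.6 and 10.8 FPKM in cocktail libraries 1 to 4, against 10.01, 11.3, 10.2 and 10.6 FPKM in untreated libraries 1 to 4. The groups overlapped, and the 95% interval of its log2 change ran from -0.039 to 0.17 (log2 change 0.066, limma adjusted p = 0.239). After median-ratio rescaling its adjusted p was 0.0271, on the higher side. Slc7a6 and Slc7a6os are annotated 1.7 kb apart and do not overlap.

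The other 28 members were under the filter, with at most 0.435 FPKM in any library. Of these, Slc36a3, Slc6a18, Slc6a20b, Slc7a12 and the glycine carrier of neurons, Slc6a5, were at 0 in all 8 libraries, and 5 more were above 0 in 1 library. At this depth such a 0 allows up to 3 fragments in a library, a limit that covers counting error only. The 8 members described next were chosen after their values were seen, and their tests come from a fit of every gene above 0. The other 15 with any fragment, among them the proline carrier Slc6a7 and the GABA and taurine carrier Slc6a13, reached at most 0.14 FPKM and 6 fragments in a library.

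Slc6a11, the astrocytic GABA carrier, had 14, 13, 6 and 3 fragments in cocktail libraries 1 to 4, against 31, 28, 26 and 19 fragments in untreated libraries 1 to 4. All cocktail libraries were lower, with the lowest counts in libraries 3 and 4 (limma adjusted p = 0.00254). Slc6a19, known as the neutral amino acid carrier of gut and kidney, had 7, 4, 6 and 1 fragments in cocktail libraries 1 to 4, against 16, 10, 22 and 16 fragments in untreated libraries 1 to 4, and it was also lower throughout (limma adjusted p = 0.00256). Slc6a19 overlaps Slc6a19os by 826 bases on the opposite strand, and as the use of strand in counting is not given in the sources used here, their fragments may be mixed. Slc7a3, a cationic amino acid carrier, had 18, 12, 18 and 15 fragments in cocktail libraries 1 to 4, against 22, 25, 15 and 17 fragments in untreated libraries 1 to 4, and the groups overlapped (limma adjusted p = 0.195).

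The noradrenaline carrier Slc6a2 had 6, 8, 6 and 5 fragments in cocktail libraries 1 to 4, against 1, 1, 0 and 1 fragments in untreated libraries 1 to 4. Its counts were all higher with the cocktail, but few in number (limma adjusted p = 0.00519). The serotonin carrier Slc6a4 had 3, 4, 10 and 9 fragments in cocktail libraries 1 to 4, against 3, 2, 2 and 1 fragments in untreated libraries 1 to 4. These overlapped at 3 fragments (limma adjusted p = 0.0382), and the adjusted p was 0.169 without cocktail libraries 3 and 4. The dopamine carrier Slc6a3 was at 0 in all untreated libraries and had at most 5 fragments in a cocktail library.

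The last 3 were uneven between the cocktail libraries. Slc6a12, a carrier of betaine and GABA, had 8, 6, 24 and 20 fragments in cocktail libraries 1 to 4, against 8, 0, 5 and 5 fragments in untreated libraries 1 to 4, and was not called (limma adjusted p = 0.0562). Slc38a4, a neutral and cationic amino acid carrier, had 5, 6, 21 and 25 fragments in cocktail libraries 1 to 4, against 7, 5, 9 and 6 fragments in untreated libraries 1 to 4, and was not called either (limma adjusted p = 0.197). Without cocktail libraries 1 and 2 the limma adjusted p was 0.00282 for Slc6a12 and 0.000686 for Slc38a4. That fit was added after the values were seen. It left out the cocktail libraries in which both were low, so these p-values are no support for a rise. Both were high in cocktail libraries 3 and 4, the libraries in which the 11 microglial markers summed to 36.2 and 48.4 FPKM. Of the 12 fibroblast markers, all tested, 6 rose, 3 fell and 3 were not called, while 26.6% of all genes tested rose and 41.1% fell. Lum passed the filter through the cocktail libraries alone, and Aldh1a2 and Pdgfra reached 1 FPKM in only 1 untreated library. Their calls are therefore no separate support for a rise. The 12 fibroblast markers summed to 158, 154, 164 and 179.7 FPKM in cocktail libraries 1 to 4, against 273, 265, 281 and 289.9 FPKM in untreated libraries 1 to 4. Ogn, the highest of them untreated, averaged 18.6 FPKM with the cocktail and 137 FPKM untreated. The fibroblast markers did not share 1 pattern over the cocktail libraries. Dcn had 6.70, 6.15, 8.51 and 11.9 FPKM in cocktail libraries 1 to 4, against 1.54, 1.26, 1.42 and 1.59 FPKM in untreated libraries 1 to 4. Dcn was thus highest in cocktail libraries 3 and 4 too. Crym had 26.6, 28.7, 27.2 and 26.0 FPKM in cocktail libraries 1 to 4, and Crym and Ogn were both lowest in library 4. The part of the microglial and fibroblast markers in the values of Slc6a12 and Slc38a4 was not tested. Slc43a1 had 13, 3, 4 and 4 fragments in cocktail libraries 1 to 4, against 7, 4, 3 and 3 fragments in untreated libraries 1 to 4, with cocktail library 1 high and the groups overlapping (limma adjusted p = 0.577).

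**Figure D4:**
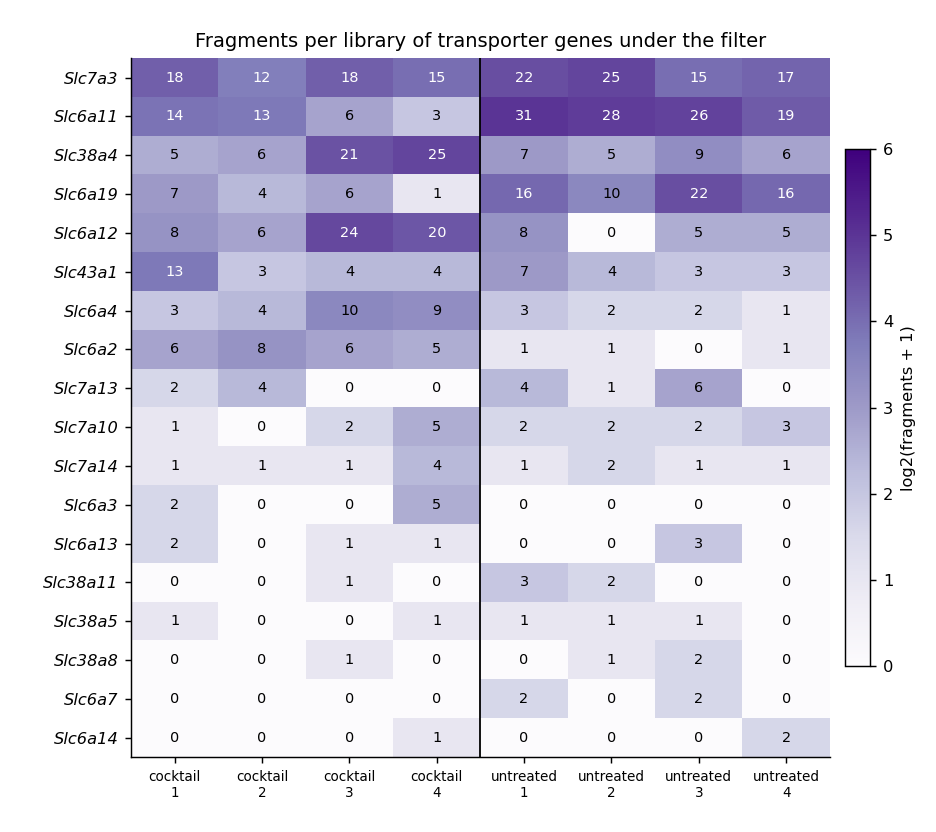
Whole fragments recovered in each library, cocktail libraries at the left, for the 18 members under the filter that were above 0 in at least 2 libraries; the shade gives log2(fragments + 1). Slc6a11 and Slc6a19 are paler in the cocktail libraries, Slc6a2 is paler in the untreated libraries, and Slc38a4 and Slc6a12 are dark in cocktail libraries 3 and 4.

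Genes that work with these carriers changed in both directions, which is not particular to them. Over all 11845 genes tested, 26.6% rose and 41.1% fell, 67.7% in all, and the counts of each list below stand beside these shares. Of the genes left out by the rule and the heavy chains, 2 of 5 tested rose and 3 fell. The cystine and glutamate exchanger Slc7a11 had a mean of 18.9 ± 1.00 FPKM with the cocktail and 3.02 ± 0.390 FPKM untreated (log2 change 2.31, limma adjusted p = 3.46e-11), and the cationic amino acid carrier Slc7a2 had 97.2 ± 1.78 FPKM with the cocktail and 36.4 ± 1.11 FPKM untreated (log2 change 1.39, limma adjusted p = 2.85e-12). The light chain Slc7a5 had 6.21 ± 0.295 FPKM with the cocktail and 11.6 ± 0.759 FPKM untreated (log2 change -0.80, limma adjusted p = 4.23e-08). Slc3a2, the heavy chain shared by Slc7a5, Slc7a6, Slc7a7, Slc7a8 and Slc7a11, had 38.8 ± 0.828 FPKM with the cocktail and 60.8 ± 2.27 FPKM untreated (log2 change -0.63, limma adjusted p = 4.80e-09). Slc7a6, Slc7a7 and Slc7a11 rose while their shared heavy chain and Slc7a5 fell. In family 1, whose members take up glutamate and neutral amino acids, 3 of 5 tested genes rose and 2 fell. The glutamate carrier Slc1a2 rose 5.37-fold (log2 change 2.31, limma adjusted p = 7.46e-13) and the glutamine exchanger Slc1a5 3.60-fold (log2 change 1.44, limma adjusted p = 1.13e-09), Slc1a4 rose by less (log2 change 0.26, limma adjusted p = 5.06e-05), and Slc1a6 fell (log2 change -0.38, limma adjusted p = 0.00125).

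Of 7 tested genes of GABA synthesis and breakdown, 3 rose and 4 fell. Gad1, which makes GABA, and Maob, an oxidase in its synthesis from putrescine, rose to 3.21 and 4.40 FPKM with the cocktail, against 1.11 and 1.21 FPKM untreated (limma adjusted p = 6.66e-08 and 1.35e-08). The aldehyde dehydrogenases Aldh9a1 and Aldh5a1 fell to 5.44 and 3.70 FPKM with the cocktail, against 9.99 and 6.89 FPKM untreated (limma adjusted p = 1.08e-08 and 7.13e-08). Of 8 tested genes of taurine and creatine synthesis and of the response to cell volume, 3 rose, 4 fell and 1 was not called. Cdo1, the first enzyme on the way from cysteine to taurine, rose 3.41-fold (log2 change 1.35, limma adjusted p = 6.87e-07), as the taurine carrier Slc6a6 did. The myo-inositol carrier Slc5a3, which like Slc6a6 takes up an osmolyte, was 2.36-fold lower (log2 change -1.15, limma adjusted p = 3.18e-10). Creatine kinase Ckb was 2.46-fold lower (log2 change -1.30, limma adjusted p = 6.97e-11) and the creatine synthesis enzyme Gamt 2.04-fold lower (log2 change -0.82, limma adjusted p = 9.02e-06), while the creatine carrier Slc6a8 changed by 1.08-fold.

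Of 12 tested genes of serine, glycine and proline metabolism, 3 rose, 7 fell and 2 were not called. Gcsh of the glycine cleavage system (log2 change 0.51, limma adjusted p = 2.39e-07) and the proline-degrading enzyme Prodh (log2 change 0.47, limma adjusted p = 0.00122) rose, and the serine synthesis enzymes Psat1 (log2 change -0.47, limma adjusted p = 6.71e-06) and Phgdh (log2 change -0.46, limma adjusted p = 1.03e-06) fell. Prodh lay near the filter, at 1.19 to 1.91 FPKM with the cocktail and 0.654 to 1.10 FPKM untreated. It passed with only 1 untreated library at 1 FPKM or more, so its call is no separate support for a rise. Of 5 tested genes of branched-chain amino acid breakdown, 2 rose, 1 fell and 2 were not called. Bckdhb, a subunit of the branched-chain ketoacid dehydrogenase, had 37.5 ± 2.12 FPKM with the cocktail and 7.95 ± 0.414 FPKM untreated, a 4.71-fold rise (log2 change 2.10, limma adjusted p = 4.41e-12). Bcat2, the mitochondrial transaminase, rose too (log2 change 0.43, limma adjusted p = 2.65e-05), and Ivd, of leucine breakdown, fell (log2 change -0.37, limma adjusted p = 1.17e-06). Slc43a2 rose and Slc6a15 fell in the same libraries, and both carry branched-chain amino acids. Of 18 tested genes through which lysosomal amino acids act on mTORC1, 3 rose, 9 fell and 6 were not called. The largest changes were the falls of Sesn1 (log2 change -0.63, limma adjusted p = 8.65e-09), Rragd (log2 change -0.52, limma adjusted p = 1.65e-07), Rragb (log2 change -0.46, limma adjusted p = 1.35e-05) and Sesn2 (log2 change -0.28, limma adjusted p = 2.65e-04), each smaller in size than the rise of Slc36a1. The 9 vesicular and low-affinity transmitter carriers were all under the filter.

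**Figure D5:**
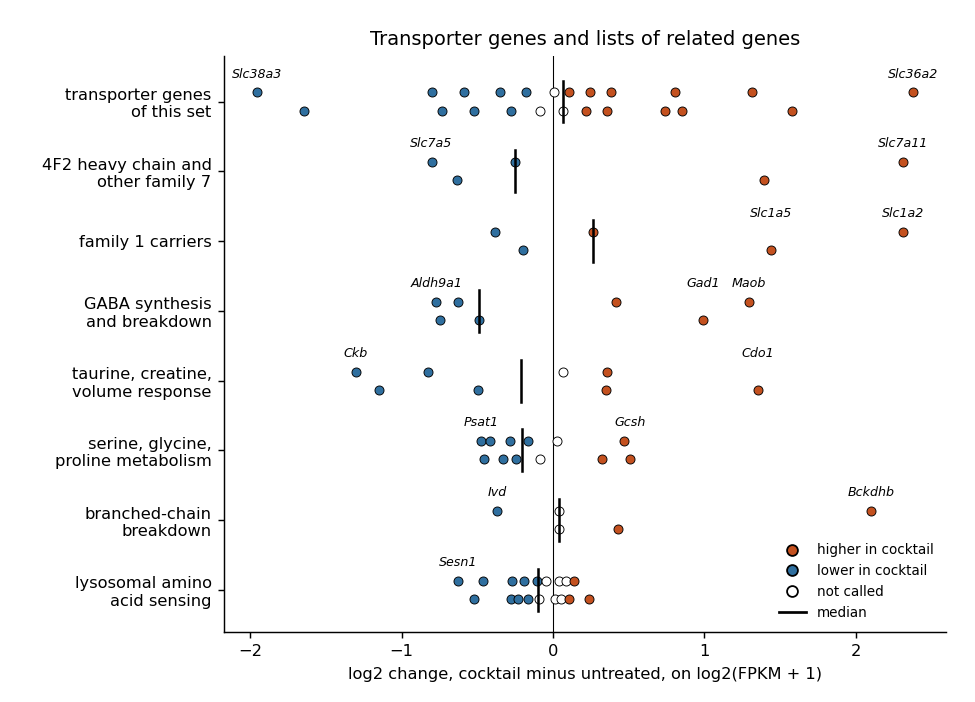
Log2 change, cocktail minus untreated, on the log2(FPKM + 1) scale for the 23 tested members and for the tested genes of 7 related lists, with a vertical bar at each list's median and the genes with the largest changes named. Slc36a2, Slc7a11, Slc1a2 and Bckdhb have log2 changes above 2, and the members Slc38a3 and Slc6a15 lie furthest left.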

How the data were processed

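Polyadenylated RNA was sequenced from cultured mouse astrocytes. Per the labels' protocols, TRIzol was used for extraction and a stranded TruSeq mRNA kit for the libraries. The deposited table holds FPKM values for 8 libraries. The submitters' notes on their processing list the build mm10 and the tool DESeq. Which aligner and counter the authors ran, and whether strand was used, is not given in these sources.

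Libraries were grouped by title, since the treatment labels of cocktail libraries 2 to 4 spell C1q with other numbers. The 11845 genes that reached 1 FPKM in 4 or more libraries were tested on log2(FPKM + 1) with limma 3.58.1 in R 4.3.3, with a mean-variance trend, two-sided, and p-values were adjusted over all of them by the Benjamini-Hochberg method. A fold change on this scale understates the change of low genes, and folds in the text are ratios of group means. Whole fragments were recovered from the steps of the deposited FPKM for the 16557 genes above 0 in at least 2 libraries and used for depth, for low counts and for a voom fit. The procedure was tested on simulated data. No pair of libraries held identical values.

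Members were matched by symbol, 1 of them is not reported here beyond its place in counts and sums, and positions come from NCBI's GRCm38.p6 annotation. The members, the lists of related genes and markers, and the rule for named genes (every library for members with a group mean of at least 5 FPKM or a called change of at least 2-fold, up to 4 genes of each list) were chosen with earlier results of these data known. FPKM divides by the total of a library, so abundant genes that rise lower the values of all others. The 20 alternatives to the fit, rescaling among them, are described at the end, and 2 more, for genes under the filter, were added after seeing the data.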

Additional observations from a re-analysis of the deposited data

Results flagged for a closer look

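Of 118 groups of 4 libraries checked over the genes named in the text, 7 held 1 library apart from the other 3, and chance alone flags about 1 in 20 groups. Slc38a6 had 2.45 FPKM in cocktail library 4, against 2.06 to 2.10 FPKM in the other cocktail libraries, and 3.27 FPKM in untreated library 2, against 2.95 to 2.99 FPKM in the other untreated libraries. Slc43a1 had 0.169 FPKM in cocktail library 1, against 0.0406 to 0.0515 FPKM in the other cocktail libraries. Slc6a2 was listed at 0 FPKM in untreated library 3, where the other untreated libraries held 1 fragment each. Outside the carrier set, Slc1a6 had 0.857 FPKM in cocktail library 1, against 1.01 to 1.03 FPKM in the others. Maob had 3.95 FPKM in cocktail library 2, against 4.49 to 4.58 FPKM in the others. Ckb had 1361 FPKM in untreated library 3, against 1446 to 1460 FPKM in the others.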

How the results depend on the processing

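The 11 members that rose and the 9 that fell stayed 11 and 9 when any 1 library was left out, and the counts at 2-fold stayed 3 and 2. A stricter filter (mean of at least 5 FPKM) left 5 that fell, because 17 and not 23 members were then tested. The counts were 13 and 9 after median-ratio rescaling, 11 and 7 after quantile normalization, 13 and 11 without a filter, and 10 and 7 without cocktail libraries 1 and 2. With a pseudocount of 0.1 or with voom, 4 rose and 3 fell at 2-fold. Over the 31 members followed, 460 results kept their side of the threshold, and 6 lost and 4 gained a call; the members concerned are named in the report. No called log2 change took the other sign, but 5 log2 changes of 4 members that were not called did: Slc7a8 (0.058 after quantile normalization), Slc38a10 (-0.0039 and -0.014 without cocktail or untreated library 3), Slc38a4 (-0.018 without cocktail libraries 3 and 4) and Slc43a1 (-0.0068 without cocktail libraries 1 and 2). Of the other genes, Slc7a1 lost its call after quantile normalization (limma adjusted p = 0.0515). With the replicate number as a block, 11 rose and 9 fell, and 3 and 2 at 2-fold. Deviations of same-numbered libraries correlated by -0.0438 to 0.0859, and 2 of 4 matched best with their own number. With so few libraries this neither shows nor excludes a pairing by number. A count test with edgeR on the recovered fragments was planned and not run. Members with a few fragments a library are limited by depth.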
